A study of Homo sapiens with 9 samples.

Results

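The whole transcriptome of Ramos cells treated with HDL nanoparticles (HDL NPs) was compared here with that of cells given PBS, gene by gene and array by array. Members were all genes that could be read on the 6 arrays of these conditions: probes counted as above background with a detection p under 0.05, those so on 3 or more of the 6 arrays were kept, and the brightest of them stood for its gene. This left 9804 of the 20046 genes with a probe of 1 symbol, from 16789 of 47323 probes above background. Ramos is an established human Burkitt's lymphoma line, used at passage 10 to 15. The HDL NP group (40 nM, 48 h, 3 arrays) received a synthetic particle built from a gold core, apolipoprotein A-I and phospholipid. The PBS group (48 h, 3 arrays) received the buffer alone. The series holds 9 arrays in all. The 3 others, from cells given human HDL at 40 nM for 48 h, entered only the normalization, the fit and a few reference values. The methods call the arrays of a condition biological replicates. The p-values measure the spread between arrays of a condition, pooled over all 3 conditions, human HDL included. HDL NP arrays lay farther from their group mean than the other arrays, so the pooled spread is on average narrower than their own.

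HDL carries cholesterol between cells and binds the receptor SCARB1, and the HDL NP offers that receptor a particle poor in cholesterol. When sterol in the endoplasmic reticulum is low, the SREBP transcription factors move to the nucleus and switch on genes of cholesterol synthesis and uptake, and when oxysterols accumulate the LXR receptors switch on the cholesterol exporters. Selenium-containing glutathione peroxidases, GPX1 and GPX4 among them, clear peroxides and oxidized lipids.

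Cell type markers were counted first. Of 10 B cell markers 9 were on the array and 8 were above background on all 6 arrays, among them MS4A1, CD79A, CD79B and CD22, while PAX5 was above background on 0 of the 6. The summed linear level of the B cell markers was 14733 to 16091 on HDL NP arrays and 14248 to 15470 on PBS arrays. Of 11 T cell markers 2 to 4 were above background on an array, with CD3E and CD3G at 0 of 6 arrays, and of 10 myeloid markers 2 or 3, with ITGAM and FCGR1A at 0 of 6. IL7R, a T cell marker, and CD14, a myeloid marker, were above background on all 6 arrays, and the T cell kinase LCK on 1 of 3 HDL NP arrays and 3 of 3 PBS arrays. In RNA from whole cultures, fewer cells of a kind and less RNA per cell cannot be told apart.

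HDL NP replicate 1 stood apart from all other arrays. Its highest correlation with another HDL NP array was 0.976 over all genes, whereas the lowest correlation among the other 8 arrays was 0.990. Per array, mean intensity was 228 to 261 for HDL NP and 229 to 278 for PBS, with 35.7% to 38.1% and 35.0% to 36.8% of probes above background. On average over genes, HDL NP replicates 1, 2 and 3 lay 0.23, 0.17 and 0.13 log2 units from their group mean, and the human HDL and PBS arrays 0.10 to 0.11. Results are therefore given with and without HDL NP replicate 1.

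Levels below are log2 intensities after background correction and quantile normalization, and a difference is the HDL NP mean minus the PBS mean on that scale. Most genes differed little: 94.1% lay within 0.5 of 0, the median was 0.04, and the range was −2.25 to 1.23. At an adjusted p under 0.05 (limma, all 9 arrays sharing an estimate of the spread), 38 genes rose (0.388% of those tested) and 4 fell (0.0408%). A looser rule, a fold over 1.5 with an unadjusted p under 0.05, was passed by 147 higher genes (1.5%) and 111 lower genes (1.13%), and is called the fold rule below. All 38 rises and all 4 falls lay beyond every PBS array on every HDL NP array, a separation that held for 2027 of all genes (20.7%). The plot of difference against p shows the rises crowded between 0.59 and 1.23 and the falls spread out to ID1.

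**Figure D1:**
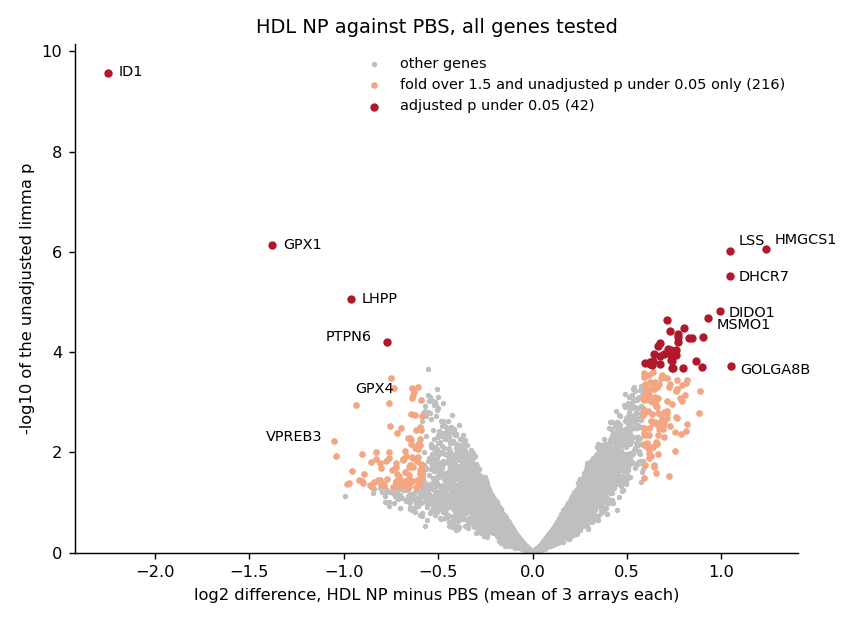
Log2 difference (HDL NP minus PBS, 3 arrays each) against −log10 of the unadjusted limma p for 9804 genes. The 42 genes past the adjusted threshold are dark red, the 216 that pass only the fold rule are orange, and ID1, at −2.25, lies far from all others.

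The number of calls depended on the arrays in the fit and on the scaling. Higher and lower counts were 87 and 25 with no background correction (53 and 19 by the fold rule), 94 and 20 with another background offset, and 0 and 2 with median scaling. With the 6 HDL NP and PBS arrays alone, 2 genes rose (HMGCS1, LSS) and 2 fell (ID1, GPX1). Without HDL NP replicate 1 the fit called 51 higher and 6 lower genes, which included 37 of the 38 and all 4. Without HDL NP replicate 2 it called 100 and 36, and without HDL NP replicate 3 it called 3 and 2. Leaving out human HDL replicate 1, 2 or 3 gave 3, 4 or 5 higher genes and 3 lower ones each time, and leaving out PBS replicate 1, 2 or 3 gave 3, 2 or 3 higher genes and 2 lower ones. HMGCS1, LSS, ID1 and GPX1 stayed past the threshold without any single one of the 9 arrays. DHCR7 did so in 8 of the 9 cases, LHPP in 5, DIDO1 in 4 and MSMO1 in 3, whereas the other 34 called genes did so in only 1 or 2. With 3 arrays against 3, an exact two-sided permutation test of 1 gene cannot give a p below 0.1, which is what every separated gene reached.

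Cholesterol synthesis supplied 3 of the 4 genes with a difference above 1, HMGCS1, LSS and DHCR7. Of 18 measured members 8 rose and 0 fell, where 0.388% of all genes rose and 0.0408% fell. The list median was 0.63 against 0.04 over all genes tested. The median was 0.80, 0.58 and 0.54 on HDL NP replicates 1, 2 and 3 relative to the PBS mean, and 0.56 in the fit without replicate 1. Under the alternatives of processing it ranged from 0.50 to 0.69. Earlier results on this pathway were known when the list was chosen, so its count is a description.

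At the head of the pathway, HMGCS1, which condenses acetyl groups into HMG-CoA, was at 10.99, 10.58 and 10.57 on the HDL NP arrays, against 9.61, 9.42 and 9.41 on the PBS arrays. Every HDL NP array was far above every PBS array, and the rise was 1.23 (standard error 0.13, adjusted p = 0.0023), or 2.35-fold. ACAT2, which makes the acetoacetyl-CoA that HMGCS1 uses, stood at 10.98, 10.45 and 10.42 on HDL NP arrays against 9.72, 9.81 and 9.94 on PBS arrays, a rise of 0.79 (adjusted p = 0.049). The next 3 enzymes did not pass over all genes: MVK, mevalonate kinase, differed by 0.58 and MVD by 0.55, both with all HDL NP arrays above all PBS arrays, while PMVK, phosphomevalonate kinase, differed by −0.36 with all HDL NP arrays below. IDI1, the isomerase that follows, differed by 0.76 (adjusted p = 0.105), and passed the fold rule, but not without replicate 1 (0.55).

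In the squalene and sterol part of the pathway, LSS, the cyclase that closes lanosterol, was at 8.78, 8.83 and 8.68 on HDL NP arrays and at 7.84, 7.57 and 7.76 on PBS arrays. No overlap remained and the 3 HDL NP arrays were close to each other, with a rise of 1.05 (standard error 0.11, adjusted p = 0.0023). DHCR7, which makes cholesterol in the last step, read 8.99, 8.92 and 8.70 on HDL NP arrays against 7.92, 7.64 and 7.92 on PBS arrays, a rise of 1.04 (adjusted p = 0.0059). MSMO1, SC5D, HSD17B7 and NSDHL, which remove methyl groups from the sterol ring or reduce and desaturate it, rose by 0.93, 0.73, 0.67 and 0.59. SQLE, squalene epoxidase, had 10.80, 9.91 and 9.96 on HDL NP arrays against 9.48, 9.45 and 9.44 on PBS arrays. Its PBS arrays were close together and its HDL NP arrays, all above them, were spread out, and the difference of 0.77 had an adjusted p of 0.107. SQLE passed the fold rule, but not without replicate 1 (0.48).

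A few enzymes behaved differently on HDL NP replicate 1 than on the other HDL NP arrays. CYP51A1, lanosterol demethylase, lay 0.19, 0.78 and 0.75 above the PBS mean on replicates 1, 2 and 3, and FDPS, farnesyl diphosphate synthase, lay at −0.28, 0.48 and 0.52. MVD was also lowest on replicate 1, at 0.31, 0.76 and 0.58. None of the 3 passed the adjusted threshold with all arrays in the fit. Without replicate 1 MVD passed it (0.67, adjusted p = 0.041), and CYP51A1 passed only the fold rule (0.76, adjusted p = 0.20). Second probes existed for part of the rises. A second DHCR7 probe differed by 0.86 and a second SQLE probe by 0.75, while the 2 weaker LSS probes, close to background, differed by −0.11 and 0.16 and those of MSMO1 by 0.56 and −0.04.

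Promoter windows of 300 bases (250 before to 50 after the RefSeq start, GRCh38.p14) were available for 7978 of the genes tested and were searched on both strands for TCACNCCAC, the letters of the classic sterol regulatory element, and for CCAAT, the box bound by NF-Y, which acts beside SREBP at sterol genes. TCACNCCAC was found in 85 of the 7978 windows (1.07%), in 0 of 31 windows of genes that rose and in 0 of 16 windows of cholesterol synthesis genes, which says only that these exact letters were not in these windows. CCAAT or its reverse complement ATTGG was found in 38.3% of all windows, in 15 of 31 windows (48.4%) of genes that rose and in 12 of 16 (75%) of cholesterol synthesis genes. It was in 5 of 11 windows (45.5%) of sterol sensing and uptake genes and in 4 of 6 (66.7%) of fatty acid synthesis and desaturation genes. By the fold rule the share was 40% of 110 windows of higher genes and 41.6% of 89 windows of lower genes, close to that of all windows. The lines below show 3 windows of genes that rose, chosen after the matches were seen, with every CCAAT or ATTGG in capitals: HMGCS1, which rose most, has 2, MSMO1 has 4, and NSDHL has 5, a pair of which overlap as CCAATTGG.
HMGCS1 promoter (GRCh38.p14, chr5:43313363-43313662, minus strand): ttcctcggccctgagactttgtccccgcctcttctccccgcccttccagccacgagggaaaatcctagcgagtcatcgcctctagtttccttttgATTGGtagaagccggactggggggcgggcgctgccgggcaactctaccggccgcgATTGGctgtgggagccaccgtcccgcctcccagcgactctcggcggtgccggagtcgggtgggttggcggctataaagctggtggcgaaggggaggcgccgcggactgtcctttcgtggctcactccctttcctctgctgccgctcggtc
MSMO1 promoter (GRCh38.p14, chr4:165327419-165327718, plus strand): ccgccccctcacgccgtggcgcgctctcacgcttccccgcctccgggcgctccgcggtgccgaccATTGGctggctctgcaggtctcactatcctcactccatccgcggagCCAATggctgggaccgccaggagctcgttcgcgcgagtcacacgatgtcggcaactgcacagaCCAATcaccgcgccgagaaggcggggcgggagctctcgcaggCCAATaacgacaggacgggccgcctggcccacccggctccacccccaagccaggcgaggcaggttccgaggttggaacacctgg
NSDHL promoter (GRCh38.p14, chrX:152830813-152831112, plus strand): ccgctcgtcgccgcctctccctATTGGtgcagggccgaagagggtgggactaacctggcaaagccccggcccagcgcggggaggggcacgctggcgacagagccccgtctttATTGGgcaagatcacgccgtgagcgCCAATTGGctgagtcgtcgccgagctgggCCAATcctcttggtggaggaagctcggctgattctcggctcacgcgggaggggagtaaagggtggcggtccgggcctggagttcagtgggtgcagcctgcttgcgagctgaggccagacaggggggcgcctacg

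Genes of sterol sensing and uptake showed smaller differences. INSIG1, a membrane protein that retains SREBP in the endoplasmic reticulum, was at 10.32, 9.90 and 10.01 on HDL NP arrays against 9.29, 9.35 and 9.28 on PBS arrays, a rise of 0.77 (adjusted p = 0.033) without overlap. It was the only one of 12 measured genes of sterol sensing and lipoprotein uptake to pass, and the list median was 0.27. NPC1, the lysosomal cholesterol transporter, and LRP8, a lipoprotein receptor, differed by 0.58 and 0.55, and SREBF2, which encodes SREBP2, by 0.29, with each HDL NP array above each PBS array. SCARB1, the HDL receptor itself, overlapped between groups, at 8.45, 8.54 and 8.21 on HDL NP arrays and 8.42, 8.26 and 8.30 on PBS arrays, a difference of 0.07 (adjusted p = 0.79). PDZK1, the adaptor protein that stabilizes SCARB1 in mouse liver, was at 5.50, 5.50 and 5.75 on HDL NP arrays against 4.63, 4.74 and 4.95 on PBS arrays, which passed the fold rule (difference 0.81) but not the adjusted threshold (adjusted p = 0.136).

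On the export side, 0 of 8 measured LXR targets and efflux genes passed either rule and the list median was 0.02, although without replicate 1 ABCA1 passed the fold rule downward (−0.65). The exporter ABCA1 read 5.54, 4.90 and 5.31 on HDL NP arrays against 5.72, 5.55 and 6.001 on PBS arrays, a difference of −0.51 (adjusted p = 0.24), and ABCG1 differed by −0.46 (adjusted p = 0.21). MYLIP, an LXR-induced ligase that degrades lipoprotein receptors, differed by −0.35 (adjusted p = 0.22). In all 3 genes every HDL NP array lay below every PBS array, as was so for 840 of the 9804 genes.

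Fatty acid synthesis and desaturation pointed upward as a list, with a median of 0.50 over 8 measured members. In 7 of them every HDL NP array lay above every PBS array, as was so for 1187 of the 9804 genes. SCD, stearoyl-CoA desaturase, was the only member to pass, at 11.77, 11.13 and 11.23 on HDL NP arrays against 10.59, 10.38 and 10.57 on PBS arrays, a rise of 0.86 (adjusted p = 0.047). ELOVL5, FASN and ACACA, which elongate and build fatty acids, differed by 0.57, 0.55 and 0.51 with adjusted p of 0.070 to 0.22. The list median was 0.73, 0.21 and 0.47 on HDL NP replicates 1, 2 and 3 and 0.36 without replicate 1. Of 11 acyl-CoA synthetases and lysophospholipid acyltransferases, 0 passed either rule, and their median was 0.05.

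**Figure D2:**
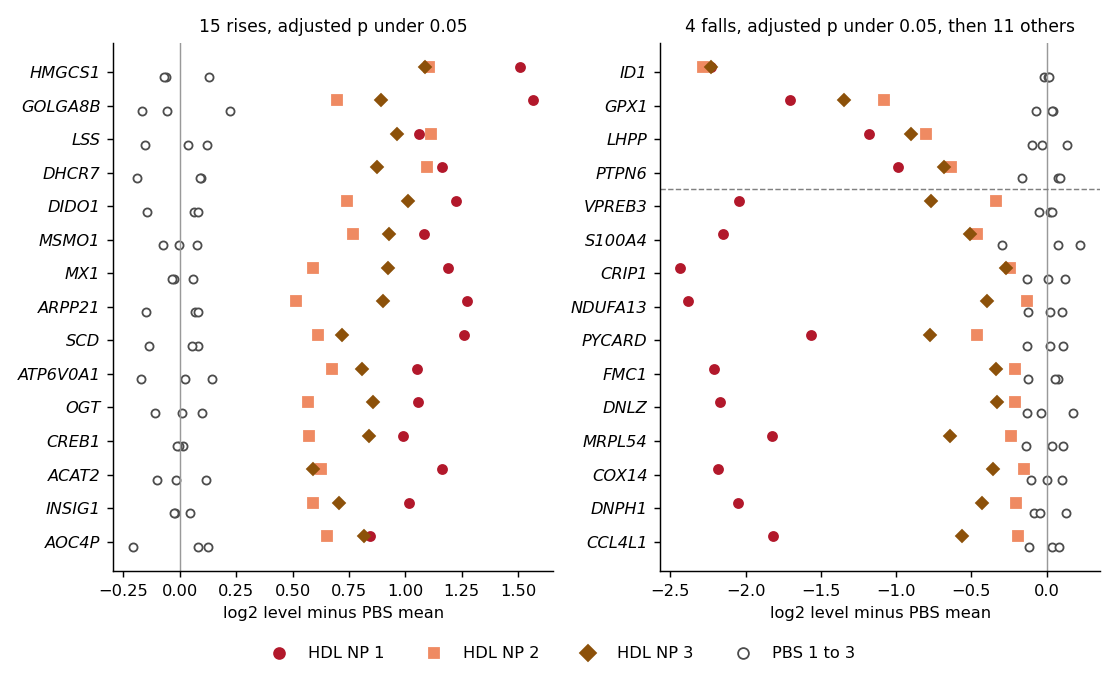
Log2 level minus the PBS mean on the 6 arrays for the 15 largest rises (left) and for 15 lower genes (right). The lower genes are the 4 falls past the adjusted threshold, then 11 others that pass the fold rule. These 11 are the largest among fold-rule genes with every HDL NP array below every PBS array. Filled symbols are HDL NP replicates 1, 2 and 3, open circles the PBS arrays. All 3 HDL NP arrays stand well clear of PBS for the rises and the 4 falls, but in the lower right replicate 1 lies at −1.57 to −2.43 and the other HDL NP arrays lie between −0.78 and −0.13.

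Rises outside lipid metabolism covered unrelated functions. DIDO1, a transcription regulator, rose by 0.99 (adjusted p = 0.021), and its second probe, near background, differed by −0.05. MX1, an interferon-induced antiviral GTPase, was at 10.01, 9.41 and 9.74 on HDL NP arrays against 8.88, 8.79 and 8.78 on PBS arrays, a rise of 0.90 (adjusted p = 0.033). It was the only 1 of 21 measured interferon-stimulated genes to rise, while ISG15 (−0.70) and IFITM2 (−0.78) passed the fold rule downward, and the list median was 0.03. ISG15 lay at −1.73 on HDL NP replicate 1 and at −0.18 and −0.19 on replicates 2 and 3, and IFITM2 at −1.95, −0.08 and −0.32. Without replicate 1 neither passed the fold rule (−0.19 and −0.20).

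CREB1, the transcription factor that answers cyclic AMP, stood at 10.76, 10.35 and 10.61 on HDL NP arrays against 9.79, 9.77 and 9.76 on PBS arrays, a rise of 0.80 (adjusted p = 0.032). Its 4 other kept probes differed by 0.30, 0.25, −0.07 and −0.18, so the rise rests on the brightest probe. OGT, which attaches O-GlcNAc to proteins, rose by 0.83, with 0.80 at its second probe. ARPP21, a phosphoprotein regulated by cyclic AMP, rose by 0.90, with 0.95 at its second probe, while weaker ARPP21 probes, close to background, differed by 0.25 and 0.17. ATP6V0A1, a subunit of the vacuolar proton pump, rose by 0.84. CLCN6, an endosomal chloride transporter, lay 0.66, 0.64 and 0.62 above the PBS mean on HDL NP replicates 1, 2 and 3 and rose by 0.64 (adjusted p = 0.047). Its lysosomal relative CLCN7 differed by 0.76 (adjusted p = 0.070).

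CDKN1A, which encodes the cell cycle inhibitor p21 and is a target of p53, was at 11.53, 11.18 and 11.08 on HDL NP arrays against 10.58, 10.38 and 10.61 on PBS arrays, a rise of 0.74 (adjusted p = 0.047). It was the only one of 14 measured p53 targets to rise, and the list median was 0.22. A second p53 target, ZMAT3 (0.72), passed only the fold rule. ZMAT3 lay at 1.51, 0.22 and 0.45 on replicates 1, 2 and 3, and without replicate 1 it did not pass (0.33). IL21R, the receptor of interleukin 21, was at 7.30, 7.50 and 7.48 on HDL NP arrays against 6.77, 6.59 and 6.90 on PBS arrays. Here HDL NP replicate 1 was the lowest of its group, and the rise was 0.67 (adjusted p = 0.041). A second IL21R probe, near background, differed by −0.02. ETS1, a lymphoid transcription factor, rose by 0.74 and KIFC2, a kinesin, by 0.77. GOLGA8B (rise of 1.05) belongs to a family of near-identical golgin copies and AOC4P (0.77) is a pseudogene, so that cross-hybridization with relatives cannot be told apart from their own signal.

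Falls were few, and ID1 led them. ID1, which blocks basic helix-loop-helix transcription factors from binding DNA, was at 4.23, 4.17 and 4.22 on HDL NP arrays against 6.44, 6.46 and 6.47 on PBS arrays. The 3 values of each group were nearly equal, and ID1 was not above background on any HDL NP array, so the fall is only a bound: at least 3.78-fold lower (fitted difference −2.25, adjusted p = 2.6e-06). Its relatives ID2 and ID3 differed by −0.49 and −0.41 with adjusted p of 0.165 and 0.145, each with all HDL NP arrays below all PBS arrays. Of 12 measured genes of ID proteins and BMP signaling, only ID1 passed either rule, and the list median was −0.15.

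GPX1, the cytosolic glutathione peroxidase and a selenoprotein, was at 7.13, 7.75 and 7.49 on HDL NP arrays against 8.88, 8.76 and 8.87 on PBS arrays. The groups lay far apart, and GPX1 fell by 1.38 in log2 terms, with a standard error of 0.15 and an adjusted p of 0.0023, and was 2.60-fold lower. GPX4, the phospholipid peroxidase, was at 9.77, 10.32 and 10.19 on HDL NP arrays against 10.69, 10.79 and 10.69 on PBS arrays. Its groups did not overlap either, but its difference of −0.63 passed only the fold rule (adjusted p = 0.075). A second GPX4 probe differed by −0.79. Over 14 measured selenoproteins the median was −0.04, and only GPX1 and GPX4 passed the fold rule. Without replicate 1 GPX4 differed by −0.47 and no longer passed it, which left GPX1 alone.

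LHPP, a histidine phosphatase, fell to 5.73, 6.10 and 6.004 on HDL NP arrays, against 6.87, 6.80 and 7.04 on PBS arrays (difference −0.96, adjusted p = 0.014). PTPN6 encodes SHP-1, a phosphatase that dampens B cell receptor signals, and was at 4.87, 5.21 and 5.17 on HDL NP arrays against 5.69, 5.93 and 5.94 on PBS arrays (difference −0.77, adjusted p = 0.034). It was the only one of 18 measured genes of B cell receptor signaling to pass either rule. MOS and PPP1R14A were above background on 3 PBS arrays and 0 HDL NP arrays. Their fitted differences passed the fold rule (adjusted p of 0.083 and 0.070). Their bounds, at least 1.45-fold and 1.48-fold lower, lie short of 1.5-fold, so that passing rests on unmeasured levels. SPHK1, which makes sphingosine 1-phosphate, was above background on 1 of the 3 HDL NP arrays and on all 3 PBS arrays, and its difference of −0.60 passed the fold rule (adjusted p = 0.126).

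Taken singly, the 3 HDL NP arrays gave different pictures of the same treatment. On replicate 1, 938 genes lay more than 1.5-fold above and 931 more than 1.5-fold below the PBS mean, 19.1% of all genes. On replicate 2 there were 124 and 59 (1.87%), and on replicate 3 there were 173 and 53 (2.31%). Single human HDL arrays had 0.428% to 0.734% of genes past 1.5-fold, and a PBS array against the mean of the remaining PBS arrays 0.928% to 1.14%. Of the genes past 1.5-fold upward on any HDL NP array, 76.6% were so only on replicate 1, and of those downward 89.9%.

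**Figure D3:**
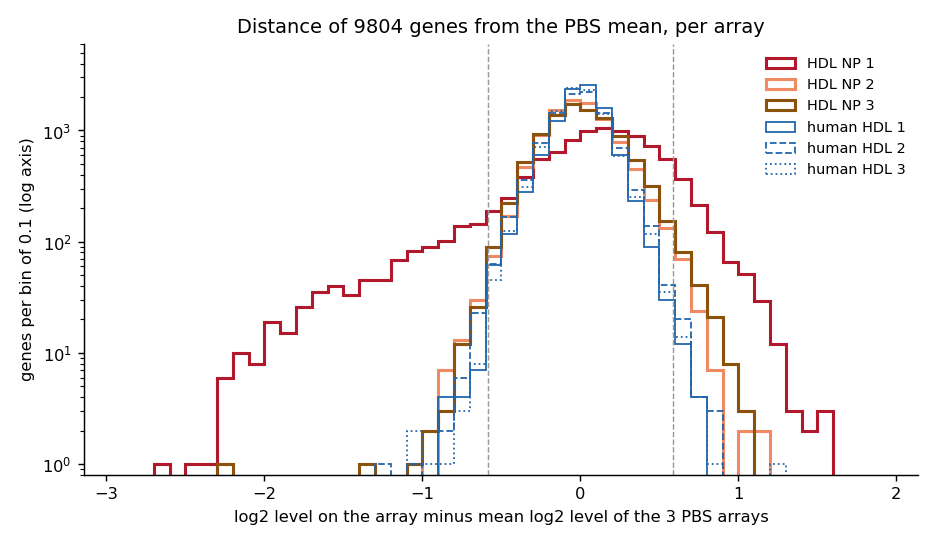
Number of genes (log axis, bins of 0.1) by log2 level minus the PBS mean, for each HDL NP array and each human HDL array, with dashed lines at 1.5-fold. HDL NP replicate 1 has a long lower tail with 436 genes more than 2-fold below the PBS mean, against 2 on replicate 2 and 3 on replicate 3.

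Past 1.5-fold on all 3 HDL NP arrays were 28 genes upward and 5 downward, and on all 3 human HDL arrays 0 and 0. The downward ones, seen only after this selection, were ID1, GPX1, LHPP, PTPN6 and MOS. MOS was not above background on any HDL NP array and its bound, at least 1.45-fold, lies short of that mark, so its place among the 5 rests on unmeasured levels. The upward ones held 21 of the 38 rises, led by HMGCS1, LSS, DHCR7, MSMO1 and DIDO1, and 7 genes short of the adjusted threshold. The steadiest of these 7, SNORA70, a small nucleolar RNA, lay 0.70, 0.74 and 0.70 above the PBS mean on replicates 1, 2 and 3 (adjusted p = 0.10). EPHA4, an ephrin receptor, lay at 0.64, 0.71 and 0.77 (adjusted p = 0.063). A further 17 genes were past 1.5-fold upward on replicates 2 and 3 but not on replicate 1, CYP51A1, IL21R and PMAIP1 (a BCL2 family member that promotes death) among them, and 5 were so downward, SPHK1 among them.

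Changes on replicate 1 were shared unequally by direction. The 100 genes more than 2-fold up on replicate 1 had medians of 0.36 and 0.44 on replicates 2 and 3, and 89% of them were above the PBS mean on both, against 32.1% of all genes. The 436 genes more than 2-fold down on replicate 1 had medians of −0.05 and −0.18 on replicates 2 and 3, and 59.6% were below the PBS mean on both, against 34.0% of all genes. All 3 arrays are set here against the same PBS mean, so these shares overstate likeness. Between same-numbered HDL NP minus PBS differences, which share no array, the correlation across 9804 genes was 0.08 for replicates 1 and 2, 0.40 for 1 and 3 and 0.25 for 2 and 3, and for human HDL it was −0.04 to 0.03. Genes are not independent replicates, and these correlations are given without a test.

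Genes past the fold rule were also uneven between arrays. Its 147 higher genes had medians of 0.96, 0.52 and 0.62 above the PBS mean on replicates 1, 2 and 3, and replicate 1 was the farthest of the 3 in 114. Its 111 lower genes had medians of −1.50, −0.24 and −0.39, replicate 1 was the farthest in 108, and only 7 were past 1.5-fold on replicate 2 and 18 on replicate 3. Without replicate 1 the rule was passed by 88 higher genes, 66 of them among the 147, and by 22 lower genes, 10 of them among the 111.

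Genes low on replicate 1 alone included many of mitochondria and ribosomes. NDUFA13, a subunit of respiratory complex I, was at 7.37, 9.63 and 9.36 on HDL NP arrays against 9.86, 9.63 and 9.77 on PBS arrays, and passed the fold rule downward (difference −0.97, adjusted p = 0.30). RPS28, a ribosomal protein, was at 9.13, 11.45 and 11.63 on HDL NP arrays against 10.93, 11.52 and 11.47 on PBS arrays. Its groups overlapped, since replicates 2 and 3 were at the PBS level. CRIP1 (−2.43), TMEM256 (−2.67), UQCR10 (−2.23) and ATP5IF1 (−2.27) lay as far down on replicate 1 relative to the PBS mean, and at −0.41 to 0.10 on replicates 2 and 3.

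Of 72 measured nuclear genes of the respiratory chain, 0 passed the adjusted threshold and 6 passed the fold rule downward, with a median of −0.35. Their median was −0.96 on replicate 1, −0.03 on replicate 2 and −0.10 on replicate 3, and −0.07 without replicate 1. Of 78 mitochondrial ribosomal proteins, 3 passed the fold rule downward (MRPL54, MRPL23, MRPS17) and 1 upward (MRPS25, at 7.16, 7.04 and 6.94 on HDL NP arrays against 6.66, 6.38 and 6.31 on PBS arrays), with medians of −0.52, −0.08 and −0.16 per array. Of 68 cytosolic ribosomal proteins, 1 (RPL36) passed it downward, with medians of −0.45, 0.00 and −0.02. Without replicate 1 the medians of the mitochondrial and the cytosolic ribosomal proteins were −0.11 and −0.01, and 0 genes of any of the 3 lists passed the fold rule. In the fit with all arrays, 1.13% of all genes passed it downward.

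**Figure D4:**
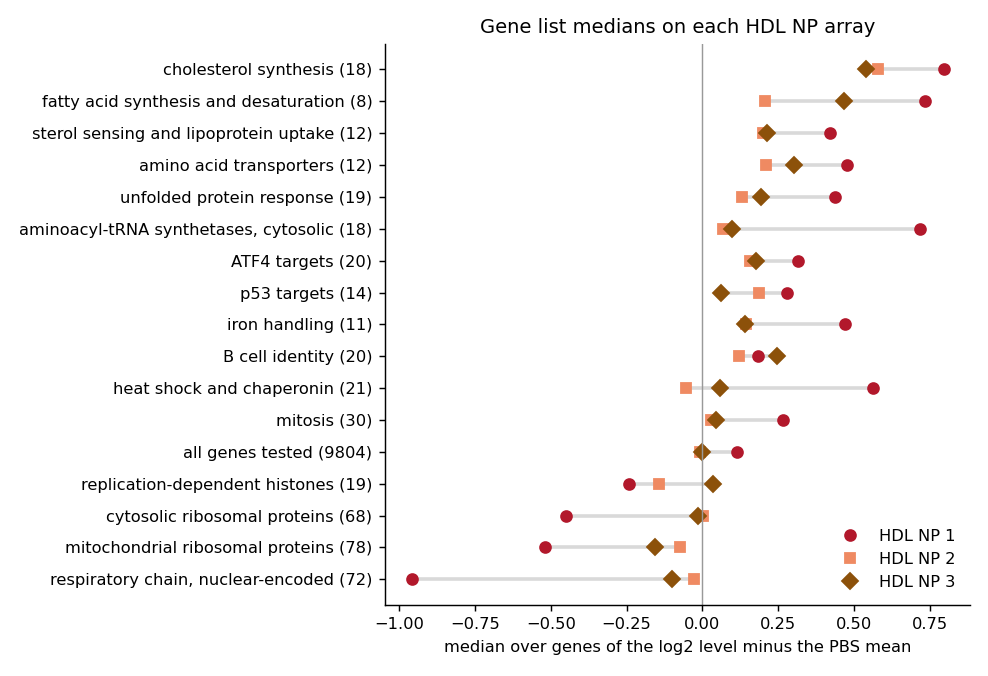
Median over the measured genes of a list (number in brackets) of the log2 level minus the PBS mean, on HDL NP replicates 1, 2 and 3. Cholesterol synthesis lies at 0.80, 0.58 and 0.54, whereas the respiratory chain lies at −0.96, −0.03 and −0.10 and the aminoacyl-tRNA synthetases at 0.72, 0.07 and 0.10.

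In the upward direction, replicate 1 also differed in named lists. The 18 cytosolic aminoacyl-tRNA synthetases had medians of 0.72, 0.07 and 0.10 per array, the 21 heat shock and chaperonin genes 0.56, −0.05 and 0.06, and 0 genes of either list passed a rule. The median of the heat shock list changed sign without replicate 1 (0.18 with it, −0.03 without). The 19 genes of the unfolded protein response had medians of 0.44, 0.13 and 0.19, and SYVN1 and EDEM1, which serve degradation of misfolded proteins, passed the fold rule (0.64 and 0.61, adjusted p of 0.18 for both). SYVN1 lay at 1.19, 0.26 and 0.46 per array, and without replicate 1 SYVN1 and EDEM1 differed by 0.36 and 0.35 and 0 of the 19 genes passed. Amino acid transporters (12 measured) kept medians of 0.48, 0.21 and 0.30 and ATF4 targets (20 measured) 0.31, 0.16 and 0.18, with 0 genes past either rule. WSB1, WDR82, ZNF91, ARID4B and KCTD20 were the farthest above replicates 2 and 3 on replicate 1, and their overall differences lay between −0.02 and 0.25.

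Gene length went with the position of a gene on replicate 1. In 4 equal groups by the length from first to last annotated base (GRCh38.p14, medians of 4.997, 17.4, 40.6 and 117 kb, 9797 genes), the median on replicate 1 was −0.12, 0.11, 0.19 and 0.22 relative to the PBS mean from the shortest to the longest group. On replicate 2 it stayed between −0.02 and 0.00, and on replicate 3 it was −0.07, −0.02, 0.02 and 0.07. Genes more than 1.5-fold down on replicate 1 numbered 550, 230, 89 and 61 in the 4 groups. Of the 111 lower genes of the fold rule, 79, 19, 8 and 5 were in them, and of the 38 rises 6, 15, 11 and 6. In 4 equal groups by mean level the median on replicate 1 was 0.06, 0.11, 0.15 and 0.21 from dim to bright. The part of gene length in these differences was not tested.

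**Figure D5:**
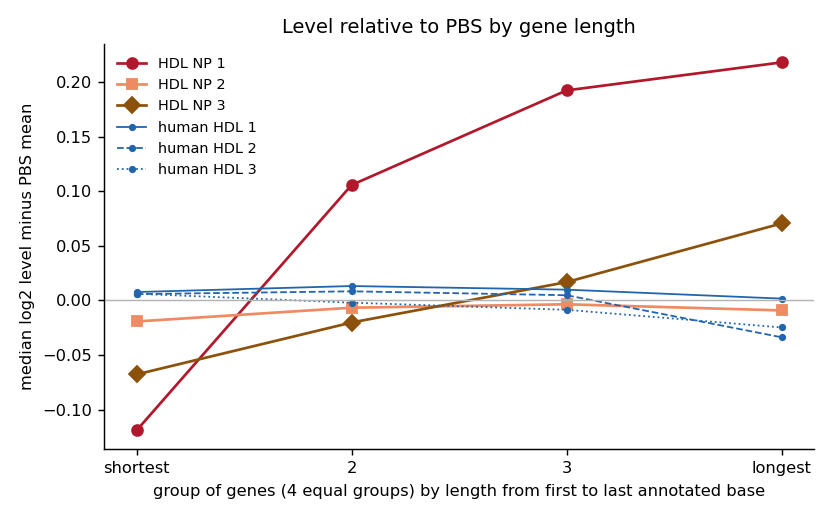
Median log2 level minus the PBS mean in 4 equal groups of 9797 genes by length, for each HDL NP array and each human HDL array. HDL NP replicate 1 climbs from −0.12 in the shortest group to 0.22 in the longest, replicate 3 from −0.07 to 0.07, and the other arrays stay between −0.03 and 0.01.

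Several genes stood out on 1 of the other HDL NP arrays. On replicate 2, CD55, a complement regulator, MFHAS1 and ABCA1 were lowest after ID1 and GPX1, at −0.87, −0.85 and −0.86 relative to the PBS mean, against −0.26, −0.18 and −0.22 on replicate 1. MIR1204, a microRNA gene, was at 5.42 on replicate 2 and at 4.55 and 4.32 on replicates 1 and 3, and was above background on 2 of 3 HDL NP arrays and 1 of 3 PBS arrays. On replicate 3, MTURN, CCDC74A and COTL1, an actin-binding protein, lay at −1.01, −0.90 and −0.90, and CCDC74A was at −0.91 on replicate 1 too. Of these, CCDC74A (difference −0.75, adjusted p = 0.063) and MTURN (−0.62, adjusted p = 0.13) passed the fold rule.

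The remaining lists held few genes past the fold rule, which 1.5% of all genes passed upward and 1.13% downward. TFRC, the transferrin receptor, was the only one of 11 iron handling genes past the fold rule, at 11.50, 10.74 and 10.83 on HDL NP arrays against 10.25, 10.27 and 10.52 on PBS arrays (difference 0.68, adjusted p = 0.119). Without replicate 1 TFRC differed by 0.44 and 0 of the 11 passed. The pro-apoptotic BCL2 relatives PMAIP1 (0.66) and BIK (−0.77) passed it in opposite directions, and BIK lay at −1.61 on replicate 1 and at −0.37 and −0.34 on replicates 2 and 3. Without replicate 1 PMAIP1 still passed (0.76) and BIK did not (−0.36). A second, dimmer PMAIP1 probe differed by 0.09. The metallothioneins MT1X (−0.80) and MT1F (−0.60), which bind metals, passed downward among 6 measured genes of the metal response, and the histones H2AC20 (−0.73) and H4C3 (−0.65) among 19 replication-dependent ones. Without replicate 1, 0 genes of either list passed. In the lysosome list CTSZ (−0.63) and in the proteasome list PSMB9 (−0.64) passed downward, and neither did so without replicate 1 (−0.58 and −0.45). A second, dimmer PSMB9 probe differed by 0.38. Of 263 measured ZNF genes, which are mostly repressors of the KRAB family, 4 passed the fold rule upward (ZNF549, ZNF483, ZNF674, ZNF876P) and 0 downward. The upward share was close to that of all genes (1.5%), and the list median was 0.09. Without replicate 1 the median was 0.00, none of these 4 passed, and 1 other did (ZNF486, 0.60). The 20 genes of B cell identity had 0 past either rule and a median of 0.19, with IRF8, MME and BCL6, all of the germinal centre programme, at 0.51, 0.50 and 0.50 and CD40 at −0.41. DNA replication (30 genes), mitosis (30), glycolysis (19), hypoxia response (13) and NF-kappaB (14) had 0 genes past either rule and medians of 0.09, 0.14, 0.08, −0.06 and 0.00, beside 0.04 over all genes. The largest difference in the NF-kappaB list was that of the inhibitor NFKBIA (−0.51, adjusted p = 0.070), with every HDL NP array below every PBS array. Without replicate 1, 1 gene of the NF-kappaB list fell at the adjusted threshold, and 0 genes of the other lists in this group passed either rule.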

How the data were processed

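Ramos cells in 3 conditions (HDL NP, human HDL, PBS) were measured on Illumina HT-12 arrays, with 3 arrays per condition. The authors deposited the mean bead intensity of each probe, neither background subtracted nor normalized, with a detection p-value per probe and array, where the detection p-value is the rank among negative controls. The authors also deposited a second table, treated as a score per probe because how its values were made is not given in the sources used here. Its scale, centring and direction are unknown (column medians 2.97 to 3.44), and it served only as an alternative.

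In R 4.3.3 with limma 3.58.1, neqc corrected the background (negative controls inferred from the detection p, offset 16), normalized all 9 arrays by quantiles and took log2. A symbol was carried by 30113 probes (8 carried several and 17202 were unnamed here), and 30074 matched the RefSeq gene table by gene ID, which changed 0 symbols. Of 12893 kept probes with a symbol, the brightest per gene was used (2496 genes had several). lmFit and eBayes fitted all 9 arrays with condition as the only term (12.0 total degrees of freedom), p-values were adjusted by Benjamini-Hochberg over 9804 genes, and the fold rule (over 1.5-fold, unadjusted p under 0.05) takes the cut-offs that the methods give for the arrays, applied here to the limma p, since the methods name no test for the arrays themselves. The number of arrays limits the precision.

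A gene above background on no array of a group was given as a bound. The bound is the mean of the bright group against the higher of the lowest signal above background and the dim signal, per array. Named genes were the 15 largest separated rises and falls past the adjusted threshold (filled from the fold rule), up to 4 fold-rule genes per list, the 5 farthest genes on each HDL NP array in each direction, the 5 with the largest gap between HDL NP replicate 1 and the other HDL NP arrays in each direction, and 7 fixed genes. Other genes named in the text are list members or were chosen after their values were seen. There were 46 gene lists with 1766 entries, of which 1261 could be measured. Members and lists were chosen with earlier results of these data known. The pipeline was tested on simulated data, and promoter windows came from RefSeq (GRCh38.p14). Alternatives covered background correction, scaling, the arrays fitted, array weights, filters, probe choice, the replicate block, the second table, the methods' t-test and leaving out each array. Scan dates and slides were not used here, so no batch was fitted.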

Additional observations from a re-analysis of the deposited data

How the results depend on the processing

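The 42 called genes kept their direction under each of the alternatives that re-processed the intensities and measured them; the direction of the second table is unknown. For higher and lower genes at the adjusted threshold (38 and 4), the counts were 87 and 25 with no background correction, 94 and 20 with normexp at offset 50, 0 and 2 with median scaling, 2 and 2 with the 6 arrays fitted alone, whether or not normalized alone, 330 and 177 with a weight per array, 4 and 3 with a weight per condition, 25 and 5 with the mean of kept probes, and 0 and 0 with the second deposited table. Under median scaling 476 higher and 377 lower genes, and for the second deposited values 418 and 334, had an unadjusted p under 0.05. With the replicate block, 10 higher and 3 lower genes passed the adjusted threshold. Same-numbered HDL NP and PBS arrays had deviations that correlated at 0.05, −0.08 and 0.16, and HDL NP replicate 1 correlated better with PBS replicate 2 (0.09). Same-numbered HDL NP and human HDL arrays correlated at 0.12, 0.06 and 0.17, each the best human HDL match of its HDL NP array. Not every array correlated best with its own number, so the numbers were not taken as pairs, but these values do not settle whether they are. The methods' t-test, adjusted, called 0 and 1 (600 and 350 unadjusted). For the fold rule (147 and 111), the counts were 53 and 19 with no background correction, 79 and 49 with offset 50, 407 and 330 in the second table and 112 and 20 by the methods' t-test, and the lower count was 71 with 6 arrays in the fit, 70 with these normalized alone, 33 with a weight per array and 72 with no filter. Leaving out each array in turn gave 2 to 100 higher and 2 to 36 lower genes at the adjusted threshold, and 88 to 275 and 22 to 447 by the fold rule (447 without HDL NP replicate 2, 317 without replicate 3). For named genes 828 values kept their side of the threshold and 511 lost it; of list medians 950 moved by less than the spread between replicates and 84 by more. The cause of these moves was not tested. Of 35 other kept probes of named genes, 12 had the opposite sign.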
